A study of Mus musculus with 51 samples.

Results

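Bivalent promoters carrying acetylated nucleophosmin were defined as H3K27me3 peaks that lay within 2 kb of the annotated start of a protein-coding gene and overlapped, by at least 1 bp, both an H3K4me3 peak and an acetylated NPM1 (AcNPM1) peak. Of the 11638 H3K27me3 peaks in 24h mouse embryos, 2690 (23.1%) met these conditions, and they are called member peaks. They lay near the starts of 2609 protein-coding genes, the member genes, which were 13.03% of the 20027 coding genes in the RNA tables. The rule used the presence of peaks and their distance to a start site, and none of the knockout ratios or RNA levels. Start sites came from the RNA tables, however, which list only genes with a count. Coding genes without a count in any of these tables could therefore not be members. How each condition entered the peak sets is not given, so the presence of a peak may depend on its level in LoNA KO or in control.

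The embryos were C57BL/6 mouse embryos labelled LoNA KO with p300 inhibitor, LoNA KO or control, and the RNA samples of the last 2 of these groups were described as 2-cell embryos at 18h, 20h, 22h and 24h. Chromatin was profiled at 24h with a tagmentation-based in-situ kit, H3K27me3 and H3K4me3 in LoNA KO and control embryos, and AcNPM1 in LoNA KO embryos given the inhibitor, in LoNA KO embryos and in control embryos. RNA was also sequenced from C57BL/6 embryonic stem cells (mESC) labelled 2C-like, with LoNA knocked down (KD) or as control. The labels give no allele, inhibitor name or dose, no starting point for the hours, no number of pooled embryos and no way in which the 2C-like state was obtained.

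LoNA is a long noncoding RNA of the nucleolus, and nucleophosmin (NPM1) is an abundant nucleolar protein and histone chaperone that can be acetylated by p300. H3K27me3 is written by the Polycomb complex PRC2 and accompanies gene silencing, whereas H3K4me3 is written by MLL and SET1 complexes at active or poised starts. Promoters that hold both marks are called bivalent, and in embryonic stem cells they are best known at developmental regulators that are silent but inducible. Acetylated NPM1 has been linked to transcription activation, and the title of the series places NPM1 upstream of PRC2 recruitment in embryos whose nucleolus is impaired.

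Promoter sequences are shown for members at the top of each readout: H2-Q7 had one of the highest H3K27me3 levels outside satellite-rich regions, Ndrg4 and Col4a1 had AcNPM1 levels far above the member median, and Paip1, Rgs2 and Tgfb2 had among the most abundant RNA of member genes in 22h embryos. They come from RefSeq on the GRCm38.p6 build, run 5′ to 3′ from 250 bases before the RefSeq start to 50 bases after it, and have every CpG in capitals.
H2-Q7 promoter (chr17:35438905-35439204, plus strand): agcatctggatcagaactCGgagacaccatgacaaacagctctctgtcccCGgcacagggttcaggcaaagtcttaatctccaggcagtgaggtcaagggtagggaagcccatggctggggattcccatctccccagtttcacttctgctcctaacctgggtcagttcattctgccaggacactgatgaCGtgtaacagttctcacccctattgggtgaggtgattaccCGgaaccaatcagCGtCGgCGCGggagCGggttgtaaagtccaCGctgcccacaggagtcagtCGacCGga
Ndrg4 promoter (chr8:95678022-95678321, plus strand): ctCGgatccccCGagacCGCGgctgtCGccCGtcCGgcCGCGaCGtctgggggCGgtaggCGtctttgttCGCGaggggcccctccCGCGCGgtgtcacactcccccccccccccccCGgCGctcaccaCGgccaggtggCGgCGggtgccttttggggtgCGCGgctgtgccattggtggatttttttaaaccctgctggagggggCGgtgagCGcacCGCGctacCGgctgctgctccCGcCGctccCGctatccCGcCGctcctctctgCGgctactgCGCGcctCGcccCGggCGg
Col4a1 promoter (chr8:11312777-11313076, minus strand): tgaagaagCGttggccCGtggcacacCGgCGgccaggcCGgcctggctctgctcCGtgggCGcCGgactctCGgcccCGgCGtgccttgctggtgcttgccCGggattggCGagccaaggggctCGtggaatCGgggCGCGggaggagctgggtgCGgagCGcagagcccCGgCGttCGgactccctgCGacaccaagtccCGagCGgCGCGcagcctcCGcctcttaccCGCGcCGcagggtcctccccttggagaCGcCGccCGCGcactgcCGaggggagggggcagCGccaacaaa
Paip1 promoter (chr13:119428350-119428649, plus strand): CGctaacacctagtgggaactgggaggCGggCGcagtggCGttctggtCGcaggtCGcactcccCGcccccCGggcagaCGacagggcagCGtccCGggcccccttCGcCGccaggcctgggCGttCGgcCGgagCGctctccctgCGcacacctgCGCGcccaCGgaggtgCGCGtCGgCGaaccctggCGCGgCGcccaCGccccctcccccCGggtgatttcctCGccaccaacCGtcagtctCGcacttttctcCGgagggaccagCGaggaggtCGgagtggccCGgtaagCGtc
Rgs2 promoter (chr1:144004100-144004399, minus strand): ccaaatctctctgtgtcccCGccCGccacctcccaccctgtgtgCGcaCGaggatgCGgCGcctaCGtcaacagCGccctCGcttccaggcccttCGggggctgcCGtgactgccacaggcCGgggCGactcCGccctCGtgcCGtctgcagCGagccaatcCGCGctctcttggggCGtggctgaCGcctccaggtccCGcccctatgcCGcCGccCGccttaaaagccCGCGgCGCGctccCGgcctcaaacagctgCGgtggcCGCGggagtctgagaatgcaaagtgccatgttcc
Tgfb2 promoter (chr1:186705940-186706239, minus strand): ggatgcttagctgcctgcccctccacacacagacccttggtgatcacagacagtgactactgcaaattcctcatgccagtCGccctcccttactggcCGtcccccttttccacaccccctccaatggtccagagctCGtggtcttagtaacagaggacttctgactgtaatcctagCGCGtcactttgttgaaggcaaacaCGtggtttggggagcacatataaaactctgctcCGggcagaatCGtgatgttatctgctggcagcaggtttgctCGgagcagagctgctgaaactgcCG

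These 6 promoters did not share one base composition. GC content was 74.3% at Ndrg4, 74% at Col4a1, 73.3% at Paip1 and 70% at Rgs2, whereas it was 56% at H2-Q7 and 54.3% at Tgfb2; the median over all 32851 promoters of the RefSeq table was 52.7%. The window held 40 CpGs at Ndrg4, 38 at Paip1, 37 at Col4a1 and 33 at Rgs2, but 12 at H2-Q7 and 10 at Tgfb2. The observed over expected CpG ratio exceeded 0.6 at the first 4 named and at 35.8% of all promoters. The SP and KLF motif GGGCGG, searched on both strands, occurred at Ndrg4, Col4a1, Paip1 and Rgs2 and in 35.7% of all promoters. The E-box CACGTG, also searched on both strands, occurred at Tgfb2 alone of the 6 and in 7.15% of all promoters. A RefSeq promoter within 2 kb of the peak was found for 1770 member genes, 67.8% of them, so no composition was compared between all member genes and other genes.

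Most H3K27me3 promoter peaks that overlapped H3K4me3 also overlapped AcNPM1. Of 3832 H3K27me3 peaks within 2 kb of a coding start, 3488 overlapped H3K4me3, and 77.1% of these overlapped AcNPM1. Of the other 344, 51.2% overlapped AcNPM1. Farther from coding starts the shares were 68.0% of 4771 H3K27me3 peaks with H3K4me3 and 43.3% of 3035 peaks without it. Each table holds 1 column per condition, so these shares have no replicate check. The bivalent promoters without AcNPM1, 798 in number, were lower and narrower than the members: their median H3K27me3 level was 3.15 RPM in LoNA KO and 2.92 RPM in control embryos over a median width of 625 bp, against 6.97 RPM in LoNA KO and 6.41 RPM in control embryos over 954 bp at member peaks, where RPM is the reads in the peak normalised to the total reads of the column. Per kb of peak the control medians were 6.76 RPM at members and 4.54 RPM at bivalent promoters without AcNPM1. Here, without AcNPM1 means without a peak of the comparison of LoNA KO with control. In the separate peak set of inhibitor against LoNA KO, these promoters overlapped 411 AcNPM1 peaks. The median of those peaks was 3.65 RPM with inhibitor and 4.06 RPM in LoNA KO, so part of the group did hold AcNPM1 signal.

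Member peaks usually sat on or beside the start. The peak covered an annotated start at 1483 members (55.1%), and this held for 323 (40.5%) of the bivalent promoters without AcNPM1. One gene was assigned to 2601 member peaks and a pair of genes to 89, of which 67 had the genes on opposite strands. Col4a1 and Col4a2, which encode the main collagen IV chains of basement membranes, are such a divergent pair, and the member peak chr8:11312085-11313036 covered both starts. In all, 165 genes had 2 member peaks, among them Col4a1, Wnt2, Pitx1 and Duxf3. The X chromosome held 42 members and the Y chromosome none, and 2553 members (94.9%) also overlapped a peak of the table that compares the inhibitor with LoNA KO.

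Developmental transcription factors, signalling genes, and channel, transporter and adhesion genes had higher shares of member genes than all coding genes had. The plot of gene classes shows these shares, while 2224 of the 2690 member peaks were in none of these classes. Classes were counted by gene name stems, which also catch a few unrelated genes such as Ephx3 and Htra1. Developmental transcription factors counted 103 of 327 genes (31.5%), signalling ligands, receptors and inhibitors 79 of 193 (40.9%), and channels, transporters and adhesion molecules 262 of 757 (34.6%), beside 13.03% of all coding genes. An H3K4me3 promoter peak was present at 88.1%, 92.2% and 76.5% of these classes in the same order, and at 72.5% of all coding genes. The higher shares were not particular to promoters with AcNPM1. Any H3K27me3 promoter peak was present at 44.3%, 53.4% and 41.2% of the classes, beside 17.8% of all coding genes. Bivalent promoter genes without AcNPM1 made up 10.1%, 9.85% and 5.15%, beside 3.55% of all coding genes.

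The families named next were picked after their counts were seen, at both ends of the range. Among transcription factors, all 3 Neurog genes (proneural factors), all 3 Pitx genes, 7 of 14 Nkx genes, 8 of 19 Sox genes and 10 of 39 Hox genes were member genes, but 1 of 17 Klf, 1 of 8 Lhx and 0 of 3 Isl genes. Among signalling genes, 11 of 19 Wnt ligands, 5 of 10 Fzd receptors for Wnt, 3 of 4 Sfrp Wnt antagonists, all 4 Gfra receptors of the GDNF family and all 3 Chrd genes (BMP antagonists) were members, but none of the 4 Notch receptors. Among channel, transporter and adhesion genes, members were 43 of 80 Kcn potassium channel genes and 39 of 46 Pcdh protocadherin genes. So were 12 of 21 Gri ionotropic and 7 of 8 Grm metabotropic glutamate receptor genes. Shares were lower for Scn sodium channel genes (5 of 18), Chrn acetylcholine receptor genes (2 of 13) and Clcn chloride channel genes (1 of 7). Several housekeeping families and the vomeronasal and olfactory receptor families were nearly empty. Members were 0 of 77 ribosomal protein genes, 0 of 46 Nduf respiratory chain genes and 0 of 60 histone genes. They were 0 of 143 vomeronasal and 2 of 474 olfactory receptor genes.

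**Figure D1:**
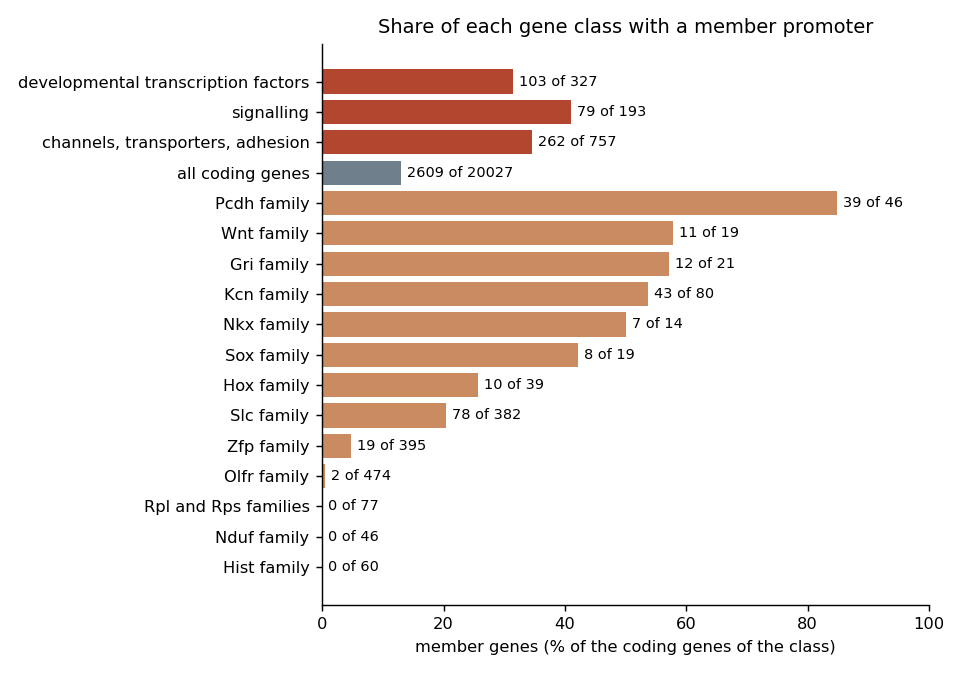
Share of coding genes that are member genes (%), by gene class (dark red), for all coding genes (grey) and by gene family (light brown), with counts beside the bars. Protocadherins reach 39 of 46 and ribosomal protein, Nduf and histone genes 0, beside 2609 of 20027 for all coding genes.

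The machinery of the marks was mostly outside the set, as were most coding genes, of which 13.03% were member genes. The lists are short, so low counts do not set them apart from that share. Of 12 PRC2 subunits listed, Phf19, a Polycomb-like PRC2 accessory protein, was the 1 member gene, and of 19 PRC1 subunits Pcgf5 and Yaf2 were members. None of 12 genes of H3K4 methyltransferase complexes, 6 H3K4 and H3K27 demethylases or 9 genes for nucleophosmin and its acetylation, Npm1 and Ep300 included, was a member. Of 10 genes listed as 2-cell markers, Duxf3, which belongs to the Dux family that activates 2-cell genes, was a member, and of 7 trophectoderm markers Gata3, Eomes and Tfap2c were.

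Across members, AcNPM1 followed H3K27me3 far more closely than it followed H3K4me3, as the plot of control levels shows. Over the 2690 members the control RPM of H3K27me3 and of AcNPM1 had a Spearman rho of 0.83, and 0.83 again per kb of peak, whereas H3K27me3 and H3K4me3 had a rho of 0.30 and H3K4me3 and AcNPM1 one of 0.36. Leaving out the 17 members above 30 RPM of H3K27me3 gave 0.82, 0.28 and 0.35. These are descriptions over peaks that share 1 library per mark and its depth. The closeness was not particular to bivalent promoters, since rho was 0.90 over 3246 H3K27me3 peaks with H3K4me3 and AcNPM1 away from coding starts, 0.81 over 1314 peaks there without H3K4me3, and 0.69 over 176 promoter peaks without H3K4me3.

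**Figure D2:**
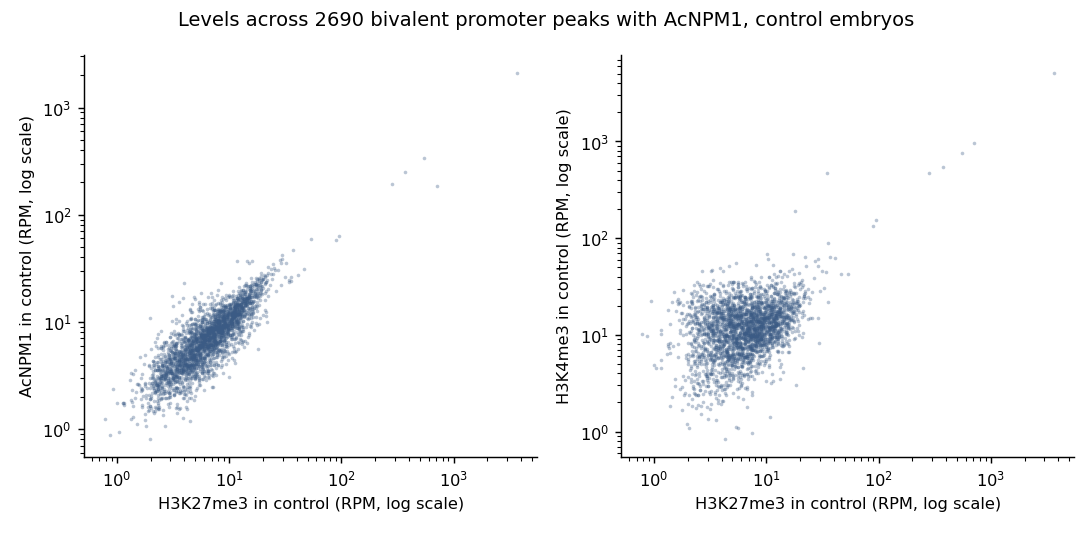
Control levels at the 2690 member peaks, each point a peak, with H3K27me3 (RPM, log scale) on the x axes and AcNPM1 (left) or H3K4me3 (right) on the y axes (RPM, log scale). AcNPM1 rises with H3K27me3 (Spearman rho 0.83) and H3K4me3 does so loosely (rho 0.30).

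The highest levels lay in satellite-rich sequence, where reads of many repeat copies can pile up on 1 annotated copy. Near the predicted gene Gm10800 on chromosome 2 (chr2:98666251-98667317), H3K27me3 was 3303 RPM in LoNA KO and 3640 RPM in control embryos, H3K4me3 7471 and 5123 RPM, and AcNPM1 1527 and 2104 RPM in the same order. Gm21738, Gm10718, Gm10801 and Gm10722 showed the same set of directions, with log2 ratios of LoNA KO over control from -0.52 to -0.13 for H3K27me3, 0.48 to 0.56 for H3K4me3 and -0.48 to -0.31 for AcNPM1. In all, 12 members lay in such parts of chromosomes 2 and 9, and 17 members exceeded 30 RPM of H3K27me3 in control.

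Outside those regions the class I histocompatibility gene H2-Q7 (chr17:35438753-35440630, covering its start) had 48.8 RPM of H3K27me3 in LoNA KO and 46.6 RPM in control embryos. Its other marks were 38.1 RPM in LoNA KO and 43.0 RPM in control for H3K4me3, and 34.3 RPM in LoNA KO and 31.4 RPM in control for AcNPM1. H2-Q7 belongs to a family of near-identical copies, so its reads may be shared among them. Col4a1 with Col4a2 and Ndrg4, picked after the values were seen, had AcNPM1 far above the member median without being the highest. AcNPM1 was 46.1 RPM in LoNA KO and 37.2 RPM in control at the collagen pair, and 44.3 RPM in LoNA KO and 34.6 RPM in control at Ndrg4. In control embryos, Cpne7, Tap2 and Trim67 had more AcNPM1 than the collagen pair and Ndrg4 had. Their values were 48.23, 46.87 and 43.48 RPM in LoNA KO and 41.84, 39.00 and 37.25 RPM in control in the same order. Ndrg4, which encodes a cytoplasmic protein of brain and heart, had equal H3K27me3 in LoNA KO and control, 24.5 RPM in both. Its peak chr8:95677948-95680064 held the RefSeq start shown above and lay 968 bp from the start in the RNA tables. The collagen pair had 14.9 RPM of H3K27me3 in LoNA KO and 14.5 RPM in control at the peak over both starts, and 39.8 RPM of H3K4me3 in LoNA KO and 42.9 RPM in control.

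LoNA KO embryos had slightly more H3K27me3 than control embryos at most member peaks, and no member reached a 2-fold difference. The H3K27me3 and H3K4me3 columns carry initials, and which is LoNA KO was read from the title of the table and the direction of its ratio. The median log2 ratio of LoNA KO over control was 0.12 at members, 0.09 at bivalent promoters without AcNPM1 and 0.06 over all 11638 peaks. The ratio was above 0 at 71.0% of members, beside 59.3% of all peaks. Ratios ran from -0.80 to 0.97, so 0 members passed 2-fold in either direction, beside 0.249% of all peaks. A difference of more than 1.25-fold upward was seen at 409 members (15.2%, beside 14.4% of all peaks) and downward at 83 (3.09%, beside 9.84%). With 1 column per condition there is no test, and the median counting interval of a member was plus or minus 0.23 on the log2 scale, at a depth of 50153338 reads in LoNA KO and 47253912 reads in control, which covers counting error only and not the spread between samples.

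Member peaks with the largest gain of H3K27me3 included Alk, a receptor tyrosine kinase gene, with 7.64 RPM in LoNA KO and 4.19 RPM in control, a log2 ratio of 0.87 (95% counting interval 0.61 to 1.12). Nhs, on the X chromosome, had 2.27 RPM in LoNA KO and 1.16 RPM in control, a log2 ratio of 0.97 (0.49 to 1.46). Cpxm1, Gm10332 and Mansc1 followed with ratios of 0.95, 0.83 and 0.83. At the other end Dgkk had 1.56 RPM in LoNA KO and 2.71 RPM in control, a ratio of -0.80 (-1.23 to -0.38). Ahr, the aryl hydrocarbon receptor gene, had 2.07 RPM in LoNA KO and 3.43 RPM in control, and Gjd4, Gbp7 and Tcf24 had ratios of -0.71, -0.65 and -0.64. The Nhs peak rested on 114 reads in LoNA KO and 55 in control, and the Alk peak on 383 reads in LoNA KO and 198 in control.

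The listed gene classes had median H3K27me3 ratios near that of the other member peaks. The median was 0.08 at peaks of transcription factor genes, 0.12 at signalling genes and 0.13 at channel, transporter and adhesion genes. It was 0.12 at member peaks in none of these classes. Within the Hox genes, Hoxb1 had 17.2 RPM in LoNA KO and 16.95 RPM in control and Hoxb13 had 21.7 RPM in LoNA KO and 21.4 RPM in control. Of the Wnt ligands, Wnt7a had 6.38 RPM in LoNA KO and 4.89 RPM in control (0.38) and Wnt9a 7.96 RPM in LoNA KO and 6.16 RPM in control (0.37), while Wnt6 had 7.88 RPM in LoNA KO and 8.99 RPM in control (-0.19). The proneural gene Neurog2 had 14.4 RPM in both.

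H3K4me3 was slightly lower in LoNA KO than in control embryos, at members as over all peaks. Members overlapped 2610 distinct H3K4me3 peaks, with a median of 11.2 RPM in LoNA KO and 11.9 RPM in control. The median log2 ratio was -0.11 at these and -0.13 over all 48658 H3K4me3 peaks. Ratios above 0 made up 24.1% at members and 26.8% over all peaks, and 0 peaks under members passed 2-fold, beside 0.0781% of all. More than 1.25-fold higher were 36 (1.38%, beside 3.5%) and lower 254 (9.73%, beside 17.7%). Relative to the median of the whole table the members' median was 0.01, so its direction depends on the scaling. Depth was 49648616 reads in LoNA KO and 66601350 reads in control, and the share of all reads that fell in H3K4me3 peaks was 39.3% in LoNA KO and 42.2% in control.

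Among the few larger H3K4me3 differences was one of the 2 Duxf3 peaks, with 6.00 RPM in LoNA KO and 3.47 RPM in control, a ratio of 0.79 (0.54 to 1.05). The other Duxf3 peak, which covers the start, had 17.3 RPM in LoNA KO and 14.9 RPM in control (0.22). Duxf3 lies in an array of near-identical copies, so its reads cannot be placed on 1 copy with certainty. Adgrf2 and Fam135b had ratios of 0.73 and 0.70. The lowest ratios were -0.93 at Nipsnap3a, with 2.28 RPM in LoNA KO and 4.34 RPM in control, and -0.82 at Avpr1b, a vasopressin receptor gene.

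AcNPM1 had the largest shift of the 3 profiles and was higher in LoNA KO at most members. Members overlapped 2669 distinct AcNPM1 peaks, with a median of 8.23 RPM in LoNA KO and 6.89 RPM in control. The median log2 ratio was 0.23 at these, beside 0.14 over all 9602 AcNPM1 peaks, and 82.7% of member ratios were above 0, beside 68.4% of all. More than 1.25-fold higher were 933 (34.96%), beside 26.7% of all, and lower 68 (2.55%, beside 8.43%). A difference of 2-fold was passed by 4 (0.15%), all upward, beside 0.614% of all peaks in either direction. The AcNPM1 column of each condition stands for 3 labelled samples, and depth was 60297174 reads in LoNA KO and 32077472 reads in control. A peak found in the deeper LoNA KO column alone could have made a promoter a member, so membership may not be free of the AcNPM1 level in LoNA KO. The share of reads in AcNPM1 peaks was 7.13% in LoNA KO and 6.42% in control, and relative to the median of the table the members' median was 0.08.

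The share of members with an AcNPM1 ratio above 0 differed with the level of the peak. It was 68.7% in the lowest quartile of members by mean AcNPM1 level and 83.2%, 89.1% and 90.2% in the next quartiles, with median ratios of 0.18, 0.26, 0.24 and 0.22. Members are higher than most peaks of the table, whose median was 4.56 RPM in LoNA KO and 4.08 RPM in control, and the part of level in the difference between members and all peaks was not tested. For H3K27me3 the share above 0 was 63.5%, 68.3%, 75.4% and 77.0% from the lowest to the highest quartile.

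The 4 members past 2-fold were Acsl1, Gng11, Mical3 and Lpar3. Acsl1, a long-chain acyl-CoA synthetase gene, had 5.41 RPM in LoNA KO and 2.34 RPM in control, a ratio of 1.21 (0.84 to 1.59). Lpar3, a lysophosphatidic acid receptor gene, had 6.09 RPM in LoNA KO and 2.93 RPM in control, a ratio of 1.05 (0.72 to 1.397). Gng11 and Mical3 had ratios of 1.15 and 1.12 from 47 and 54 reads in control. The lowest ratio was -0.79 at Gnai1, a G protein subunit gene, with 1.28 RPM in LoNA KO and 2.21 RPM in control, followed by Fibin, St6gal1, Ispd and Hmga2 at -0.77, -0.73, -0.70 and -0.69.

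Examples from the Neurog, Wnt and Hox families, picked after the values were seen, differed in their AcNPM1 ratios. Neurog2 had 19.5 RPM in LoNA KO and 12.9 RPM in control, a ratio of 0.60 (0.44 to 0.76) with no difference in H3K27me3. Wnt10a had 19.6 RPM in LoNA KO and 13.8 RPM in control (0.51), Wnt7a 9.34 RPM in LoNA KO and 6.33 RPM in control (0.56), and Hoxd12 20.2 RPM in LoNA KO and 16.6 RPM in control (0.29). Neurog1, with 25.4 RPM in LoNA KO and 25.7 RPM in control, and Wnt1, with 19.4 RPM in LoNA KO and 19.0 RPM in control, had ratios near 0.

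The sizes of the ratios of different marks were barely related over the members. Across the 2690 members the log2 ratios of H3K27me3 and AcNPM1 had a Spearman rho of -0.05, and those of H3K27me3 and H3K4me3 one of -0.09. These ratios come from 1 column per mark and condition, and the median counting interval at members was plus or minus 0.23 for H3K27me3 and for AcNPM1.

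**Figure D3:**
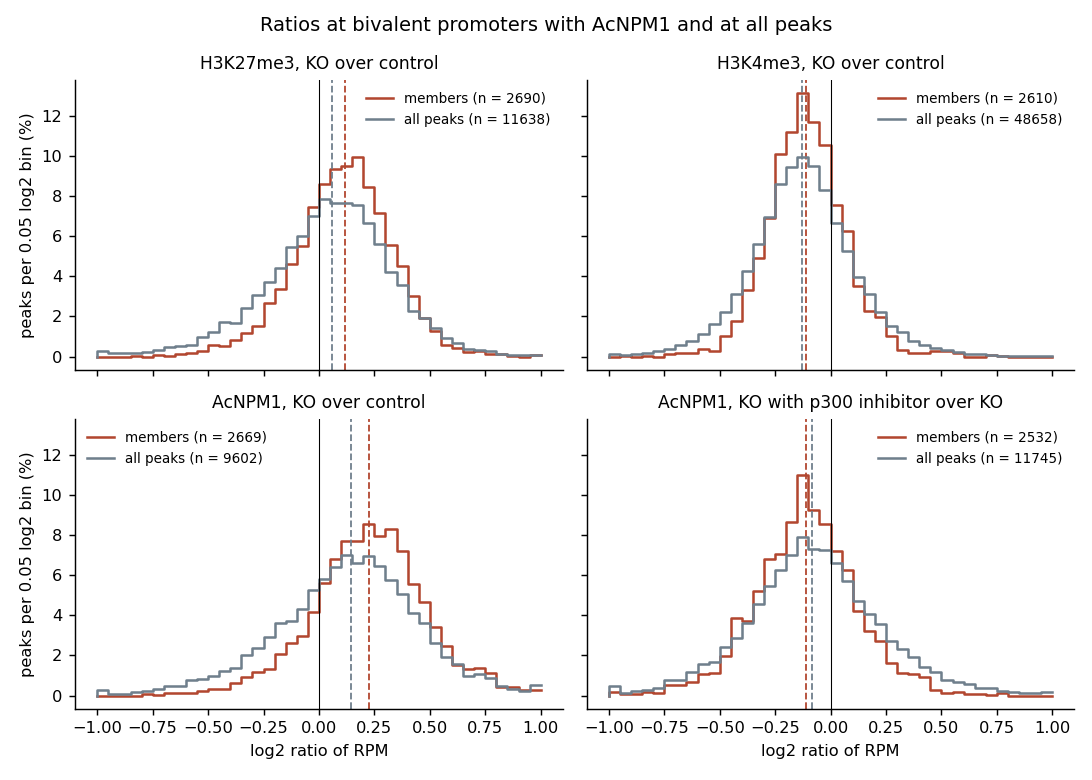
Distribution of log2 ratios of RPM (x axis, bins of 0.05; values beyond -1 or 1 are counted in the outermost bins) at peaks under members (red) and at all peaks of each table (grey), as % of peaks on the y axis, with dashed lines at the medians. Members are centred at 0.12 for H3K27me3, -0.11 for H3K4me3, 0.23 for AcNPM1 in LoNA KO over control, and -0.11 for AcNPM1 in LoNA KO with p300 inhibitor over LoNA KO.

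In LoNA KO embryos given the p300 inhibitor, AcNPM1 at members was slightly lower than in LoNA KO embryos without it. The table of this comparison has its own peak set, in which members overlapped 2532 peaks, with a median of 7.99 RPM with inhibitor and 8.62 RPM in LoNA KO. The median log2 ratio was -0.11 at these and -0.08 over all 11745 peaks, with 29.3% of member ratios above 0, beside 37.9% of all. More than 1.25-fold higher were 93 (3.67%, beside 9.44%) and lower 426 (16.8%, beside 18.9%). Past 2-fold were 3 members, all lower (0.12%), beside 0.528% of all peaks in either direction. The LoNA KO sample is the same one that is set against control above, so ratios from these comparisons are not independent of each other and only their own values are given.

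The 3 members were Gpr143, Ticam2 and Amz2. Gpr143 had 1.19 RPM with inhibitor and 2.75 RPM in LoNA KO, a ratio of -1.21 (-1.72 to -0.73), and Amz2 had 2.01 RPM with inhibitor and 4.096 RPM in LoNA KO, a ratio of -1.03 (-1.42 to -0.65). Col4a1 with Col4a2 had 39.7 RPM with inhibitor and 46.4 RPM in LoNA KO (-0.22), and Wnt10a had 14.6 RPM with inhibitor and 19.6 RPM in LoNA KO (-0.42). Ndrg4 had 43.5 RPM with inhibitor and 44.3 RPM in LoNA KO (-0.03). The highest ratio was 0.80 at Gnai1, with 2.25 RPM with inhibitor and 1.29 RPM in LoNA KO. Sequencing depth was 37816980 reads with inhibitor and 60297174 reads in LoNA KO.

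RNA libraries held 12077497 to 18286944 counts at 18h, 20h and 22h (3 libraries per group), 13066794 to 16922914 at 24h (2 per group) and 16906302 to 17674190 in mESC (2 per group). At 24h only 7877 to 10167 genes had a count, against 17125 to 23957 in the other tables, and the 2 libraries of a group were unlike each other. The mESC columns of a group had a correlation of 0.998, so p-values there rest on columns this alike, and it is not stated whether they are separate cultures. No gene of the RNA tables is named LoNA, so the knockout and the knockdown were not checked. Summed over the 10 listed 2-cell markers, mESC had 5.77 to 6.50 CPM (counts normalised to library size) in KD and 11.8 to 13.02 CPM in control, while embryos had 251.2 to 2253 CPM, so the 2C-like label of the stem cells goes with little RNA of these genes. Listed markers of cumulus, sperm, fibroblast and blood cells summed to 0 to 140.9 CPM in embryos.

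A large part of the member genes had enough counts for a test in embryos. At 22h, 1308 of the 2260 member genes in the table passed the filter on low counts (57.9%), against 71.6% of the coding genes that are not members. By control H3K27me3 the share was 67.3% in the lowest quartile of member genes and 60.9%, 53.4% and 48.4% in the next quartiles. H3K27me3 was measured at 24h and RNA at 22h, in bulk samples in which fewer cells and less RNA per cell cannot be told apart. Listed oocyte and maternal markers summed to 6584 to 11330 CPM in LoNA KO and 7321 to 9923 CPM in control at 22h. The 2-cell embryos also held much RNA of some member genes. The part of RNA kept from the oocyte in these levels was not tested. At 22h Rgs2, a regulator of G protein signalling, averaged 3112 ± 368.8 CPM in LoNA KO and 2862 ± 469.0 CPM in control (SD, n = 3 each), Paip1, a translation factor, 2788 ± 879.9 CPM in LoNA KO and 3392 ± 1240 CPM in control, and Tgfb2, a TGF-beta ligand, 1596 ± 241.2 CPM in LoNA KO and 1659 ± 439.2 CPM in control. These 3 had H3K27me3 of 5.66, 2.25 and 9.45 RPM in LoNA KO and 6.05, 2.12 and 7.62 RPM in control in the same order, so Tgfb2 was above the member median.

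No member gene was called in any embryo comparison. With edgeR's quasi-likelihood test and Benjamini-Hochberg adjustment over all genes tested, at a threshold of 0.05, calls among member genes were 0 of 1315 tested at 18h, 0 of 1178 at 20h, 0 of 1308 at 22h and 0 of 518 at 24h. Over all genes called were 0% higher and 0.00649% lower at 18h, 0.00689% in each direction at 20h, 0% higher and 0.00656% lower at 22h, and 0% in both directions at 24h. At an unadjusted p under 0.05 the members numbered 76 (5.78%, beside 5.14% of all genes tested), 49 (4.16%, beside 3.66%), 45 (3.44%, beside 3.15%) and 37 (7.14%, beside 5.16%) in order of time. DESeq2 with the same adjustment called some. At 18h it called 4 member genes higher (0.26%, beside 0.193% of all genes) and 9 lower (0.59%, beside 0.392%), at 20h 2 higher (0.13%, beside 0.0508%) and 2 lower (0.13%, beside 0.079%), and at 22h 2 higher (0.12%, beside 0.026%) and 0 lower (beside 0.0052%). At 24h it called 46 higher (6.27%, beside 5.36%) and 80 lower (10.9%, beside 8.15%). These shares are of the genes to which DESeq2 gave an adjusted p.

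Median log2 changes of member genes in LoNA KO over control were -0.13 at 18h, -0.09 at 20h, 0.02 at 22h and 0.00 at 24h, beside -0.02, -0.03, -0.00 and 0.02 over all genes tested. Without 1 control library the 20h median was 0.05, without another the 22h median was -0.02, and at 24h the median ran from -3.17 to 1.24 as each library was left out. At 18h, 134 member genes were lower in every LoNA KO library than in every control library (10.2%, beside 7.04% of all genes), and 52 were higher in every one (3.95%, beside 5.79%). At 20h these were 76 (6.45%, beside 5.22%) and 53 (4.499%, beside 4.65%), and at 22h 68 (5.199%, beside 4.5%) and 67 (5.12%, beside 4.73%). At 24h, with 2 libraries per group, they were 102 (19.7%, beside 17.3%) and 80 (15.4%, beside 16%). The 18h shares were much the same for bivalent promoter genes without AcNPM1, at 10.6% lower and 2.48% higher, with a median log2 change of -0.14. The plot of RNA changes shows how far the spread of member genes overlaps that of other coding genes at each time.

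**Figure D4:**
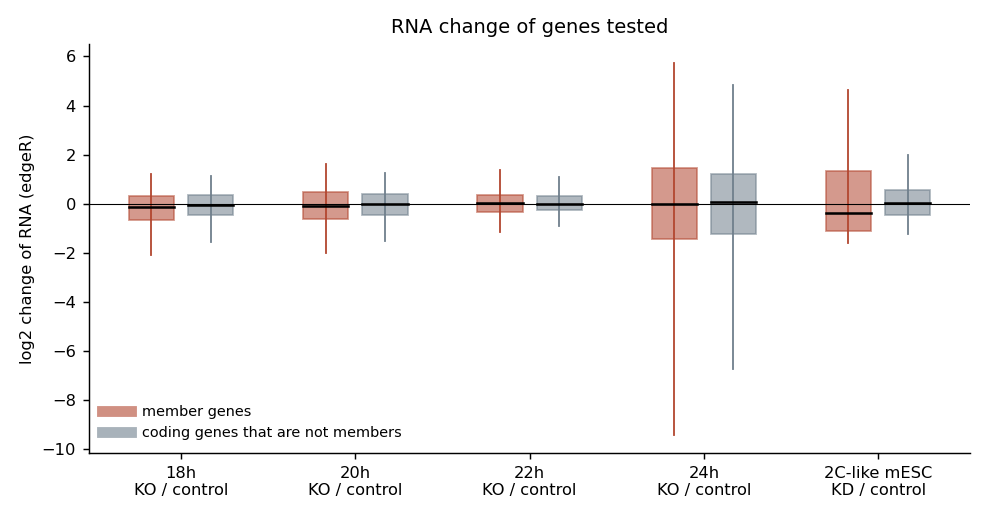
Log2 change of RNA (y axis) for member genes (red) and coding genes that are not members (grey) in each comparison, with boxes from the 25th to the 75th percentile, black lines at the medians and thin lines from the 5th to the 95th percentile. Embryo medians of member genes lie between -0.13 and 0.02, and the mESC median is -0.36.

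The member gene nearest to the threshold was 1700025G04Rik, named after its values were seen. At 18h it had 38.1, 37.6 and 26.7 CPM in LoNA KO, against 2.45, 2.91 and 3.91 CPM in control, with a log2 change of 3.46 ± 0.44 (SE) and an adjusted p of 0.0567 by edgeR. At 20h it had 84.0, 18.5 and 53.0 CPM in LoNA KO, against 6.89, 7.10 and 5.07 CPM in control (3.03 ± 0.56, adjusted p of 0.562 by edgeR). All LoNA KO libraries were above all control libraries at both times. At 22h the groups overlapped, with 8.74, 52.4 and 21.4 CPM in LoNA KO and 2.05, 5.41 and 69.6 CPM in control. At 24h it had no count in either LoNA KO library, against 71.6 and 0 CPM in control, and was not tested. Its promoter peak had 3.55 RPM of H3K27me3 in LoNA KO and 3.81 RPM in control and 3.23 RPM of AcNPM1 in LoNA KO and 3.52 RPM in control.

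Rgs2 at 18h had 3128, 6454 and 3690 CPM in LoNA KO, against 1923, 1645 and 1598 CPM in control, 1.36 ± 0.33 on the log2 scale (adjusted p of 0.744 by edgeR). The groups did not overlap at 18h, but they did at 20h, with 5182, 9428 and 8853 CPM in LoNA KO and 8593, 4896 and 6215 CPM in control, and at 22h. At 24h it had 473.8 and 870.2 CPM in LoNA KO, against 382.0 and 57.3 CPM in control. AcNPM1 at Rgs2 was 8.81 RPM in LoNA KO and 7.14 RPM in control, measured at 24h.

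Gata3, a transcription factor of trophectoderm and other lineages, was near 0 in LoNA KO at 24h. It had 0.0707 and 0 CPM in LoNA KO, against 81.5 and 76.9 CPM in control, a count of 1 against 2433 over the libraries of each group. The ratio of these counts was 2410-fold lower in LoNA KO, with a 95% counting interval of 432.1 to 95210, and the adjusted p was 0.827 by edgeR. Wide changes were common in this table, where the lowest 5% of log2 changes lay at or below -9.41 for member genes and -7.14 for all coding genes, and the fitted change of Gata3 was -10.86, which depends on the prior count. At 22h Gata3 had 80.9, 64.9 and 59.0 CPM in LoNA KO and 72.1, 53.8 and 107.4 CPM in control, and the groups also overlapped at 18h and 20h. Of the 7 trophectoderm markers, 3 of them member genes, 4 are in the 24h table. They summed to 0.0707 to 6.53 CPM in LoNA KO and to 103.9 to 112.5 CPM in control. Gata3 made up most of the control sums, and 1 of the 4, Tfap2c, had a log2 change above 0. The part of other cells or of library quality in this was not tested. At the peak near Gata3, which covers the start of 9230102O04Rik, H3K27me3 was 9.63 RPM in LoNA KO and 7.34 RPM in control (0.39, interval 0.19 to 0.59) and AcNPM1 10.4 RPM in LoNA KO and 7.76 RPM in control (0.43, interval 0.22 to 0.65).

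Polycomb subunits among the member genes were not called in embryos. Phf19 at 20h had 0.126, 0.132 and 1.83 CPM in LoNA KO, against 6.69, 9.87 and 4.31 CPM in control (-3.31 ± 1.30 on the log2 scale, adjusted p of 0.998 by edgeR), and at 22h the groups overlapped. Yaf2, a subunit of non-canonical PRC1, had 58.5, 78.0 and 92.1 CPM in LoNA KO and 58.7, 31.7 and 57.1 CPM in control at 22h. Of the 11 PRC2 genes tested at 22h, 0 were called.

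**Figure D5:**
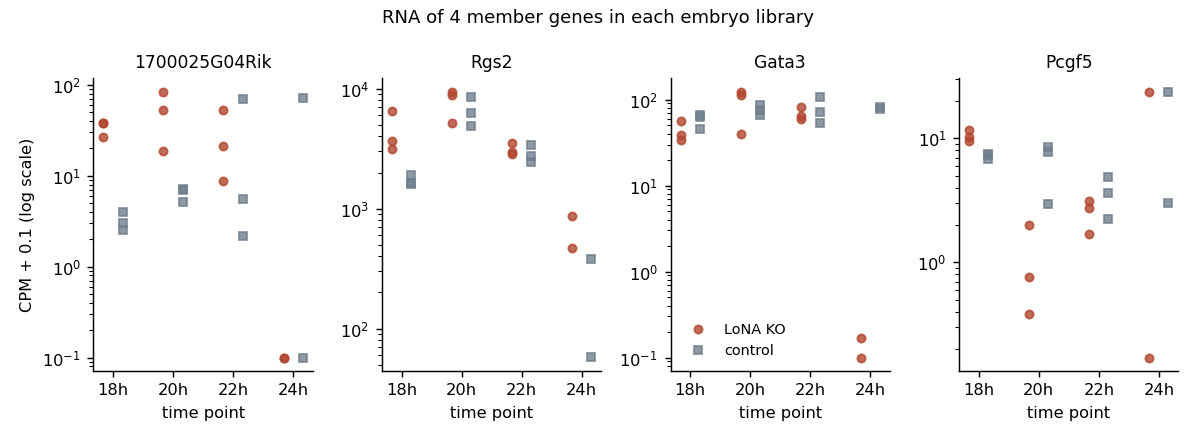
RNA of 4 member genes in each embryo library (CPM + 0.1 on a log y axis) by time point, LoNA KO as red circles and control as grey squares. 1700025G04Rik is higher in all LoNA KO libraries at 18h and 20h, Rgs2 at 18h, and Gata3 is near 0 in both LoNA KO libraries at 24h.

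Across 518 member genes tested at 24h, the log2 ratio of H3K27me3 and the RNA log2 change had a Spearman rho of 0.04. The log2 ratio of AcNPM1 and the RNA log2 change had a rho of -0.01. The points share 1 chromatin library per condition and 2 RNA libraries per group. As the RNA libraries of a group were unlike each other, a rho near 0 here cannot show a lack of relation.

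In mESC, member genes rose and fell in LoNA KD. By edgeR the share called lower was above that of all genes, and the share called higher was near it. Of 1861 member genes tested, 718 were higher (38.6%, beside 38.9% of all genes tested) and 838 lower (45.0%, beside 35.3%) by edgeR at an adjusted p under 0.05. Changes past 2-fold counted 555 higher (29.8%, beside 15.2%) and 554 lower (29.8%, beside 13.7%). DESeq2 called 660 higher (29.4%, beside 27.1% of all genes) and 529 lower (23.6%, beside 19.2%). The median log2 change was -0.36 for member genes and 0.05 for coding genes that are not members. No chromatin of mESC was analysed here, so these genes are grouped by their promoters in embryos. The pluripotency markers also differed, all 8 of them lower, with sums of 1409 and 1464 CPM in KD and 3349 and 3388 CPM in control. Fibroblast markers summed to 218.6 and 218.7 CPM in KD and 517.0 and 537.1 CPM in control, trophectoderm markers to 45.9 and 48.3 CPM in KD and 83.4 and 83.8 CPM in control, and the part of a change of cell state in the results of member genes was not tested.

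The largest rises in mESC were in genes with next to no RNA in control. Chgb, which encodes the secretory granule protein chromogranin B, had 500.5 and 546.6 CPM in KD, against 0.0574 and 0.230 CPM in control (11.76 ± 0.12, adjusted p of 2.41e-25 by edgeR). Rab3c, a synaptic vesicle GTPase, had 90.9 and 98.9 CPM in KD, against 0 and 0.172 CPM in control, a ratio of counts of 1102 with a counting interval of 376.8 to 5347. Fam163a had 48.3 and 42.8 CPM in KD, against 0 and 0.0574 CPM in control, a ratio of 1589 (284.8 to 62800). Clvs1, with 19.4 and 18.1 CPM in KD, and Plppr5, with 7.69 and 7.27 CPM in KD, had no count in control, so at a floor of 3 counts over the control group they were at least 217.4-fold and at least 87.0-fold higher.

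The lowest values belonged to genes of low RNA. Fat4, an atypical cadherin, had 0.525 and 0.417 CPM in KD, against 3.10 and 3.16 CPM in control (-2.71 ± 0.35, adjusted p of 4.40e-07 by edgeR). Prlr, the prolactin receptor gene, had 2 counts in KD over both columns, against 28 in control, a ratio 13.6-fold lower with a counting interval of 3.44 to 118.1. Sox5 had the same counts and Pik3ap1 had 2 in KD, against 23 in control. Vstm2b had a log2 change of -2.70.

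Families of member genes took different directions, beside 38.9% of all genes called higher and 35.3% called lower. Of 20 protocadherin genes tested, 18 were higher (90%) and 2 lower (10%) in KD. Pcdh1 had 203.1 and 212.4 CPM in KD, against 15.0 and 13.3 CPM in control (3.88 ± 0.06, adjusted p of 2.41e-22 by edgeR), Pcdha9 had 3.85 and 4.53 CPM in KD and no count in control, at least 48.6-fold higher, and Pcdh9 was lower with 0.175 and 0.179 CPM in KD, against 0.803 and 0.688 CPM in control. Clustered protocadherins are similar in sequence, so counts may be split among copies. Of 22 potassium channel genes tested, 5 were higher (22.7%) and 14 lower (63.6%), and Kcnk3 had 33.4 and 32.8 CPM in KD, against 0.230 and 0.574 CPM in control (6.34 ± 0.20).

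The Wnt receptors and most Wnt antagonists counted here were lower in KD. All 5 Fzd receptor genes fell, with log2 changes between -1.28 at Fzd8 and -0.66 at Fzd2, and so did the 3 Sfrp antagonists, with Sfrp1 at 44.6 and 39.7 CPM in KD, against 95.4 and 96.2 CPM in control (-1.18 ± 0.06, adjusted p of 1.17e-13 by edgeR). The Dkk antagonists were split: Dkk1 had 282.1 and 284.9 CPM in KD, against 0.230 and 0.344 CPM in control (9.91 ± 0.11, adjusted p of 2.76e-25 by edgeR), whereas Dkk2 had 1.22 and 1.07 CPM in KD, against 3.27 and 3.04 CPM in control (-1.45 ± 0.29). Of 6 Wnt ligands tested, Wnt3 was higher (1.21 ± 0.28) and Wnt16 and Wnt9a lower. Of 7 semaphorin guidance genes, 5 were lower and 2, Sema6a and Sema6d, higher, and of 7 cadherins 5 were lower and Cdh22 higher.

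Of 68 transcription factor genes tested, 22 were higher (32.4%, beside 38.9% of all genes) and 29 lower (42.6%, beside 35.3%). Nkx2-5, a cardiac homeobox factor, had 27.9 and 28.0 CPM in KD, against 0.976 and 1.09 CPM in control (4.75 ± 0.16, adjusted p of 9.77e-17 by edgeR), while the other 4 Nkx genes tested fell. Tbx20, also a cardiac factor, had 26.5 and 27.7 CPM in KD, against 2.41 and 3.27 CPM in control (3.25 ± 0.14). Hoxc10, which shares its peak with Hoxc5, had 16.1 and 20.6 CPM in KD, against 0.976 and 0.975 CPM in control (4.22 ± 0.21). Gata3 had 7.11 and 7.63 CPM in KD, against 0.517 and 0.516 CPM in control (3.82 ± 0.27), whereas Eomes and Tfap2c were lower at -1.54 and -1.18. Sox8 and Sox6 were higher at 3.39 and 3.85, and 4 of the 7 Sox genes tested fell.

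Of the Polycomb subunits, Yaf2 had 72.5 and 71.9 CPM in KD, against 13.8 and 12.9 CPM in control (2.44 ± 0.08, adjusted p of 2.07e-17 by edgeR), while Pcgf5 (-0.40) and Phf19 (-0.97) were lower. Over the whole lists, 1 of 12 PRC2 subunits was higher and 8 lower, and of 19 PRC1 subunits 9 were higher and 7 lower, beside 38.9% of all genes higher and 35.3% lower. 1700025G04Rik, the gene nearest to the threshold in embryos, had 55.03 and 56.96 CPM in KD, against 13.5 and 12.96 CPM in control (2.08 ± 0.08).

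Genes from every quartile of embryo H3K27me3 changed in both directions in mESC. Changes past 2-fold upward were seen in 26.9%, 28.3%, 30.6% and 34.5% of member genes tested from the lowest to the highest quartile of control H3K27me3, and downward in 30.2%, 30.6%, 31.5% and 26.2%. The quartiles hold genes of different RNA levels, since 81.6% of genes in the table were tested in the lowest quartile and 64.7% in the highest. For comparison, bivalent promoter genes without AcNPM1 had 25.9% past 2-fold upward and 26.02% downward of 561 tested, with a median log2 change of -0.07.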

How the data were processed

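RNA was sequenced in 38 of the 51 labelled samples and chromatin was profiled in 13. The deposited RNA tables hold read counts per gene and the deposited chromatin tables hold read counts per peak, total reads, and RPM (reads in the peak normalised to the total reads of the column) with the log2 ratio of RPM that the authors computed. For chromatin, MACS2 2.1.1, Bowtie2 2.1.0 and bcl2fastq 2.2 are listed per the submitters' processing notes, and for RNA HTSeq 0.6.0, Bowtie2 2.2.3 and HISAT2 2.1.0, all on mm10 and without their roles. How 1 peak set per table was made is not given in the sources used here. The fold and ratio columns, the log2 fold change column of 24h and the mean normalised signal of the deposited RNA tables were read to check directions against the counts and enter no result.

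RNA columns are fewer than labelled samples at 18h, 20h and 22h (3 of 4 per group) and in mESC (2 of 3). At 24h, columns of a group that correlated above 0.99 were summed, leaving 2 libraries per group. These correlated at 0.995 to 0.998 within summed pairs and 0.572 to 0.632 between them. Nothing says that columns are separate cultures or litters, so p-values measure the spread between these columns. RNA was tested per table with edgeR 4.0.16 (TMM, filterByExpr, quasi-likelihood) in R 4.3.3, adjusted over all genes tested. DESeq2 1.42.0, no filter, other overlap and distance limits, centring and leaving out each library were alternatives. Chromatin has 1 column per condition and no test. Counting intervals are at the 95% level. Scripts were tested on simulated data.

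Members and lists were chosen with earlier results of these data known. Named genes are the 10 highest in control H3K27me3, the 5 highest and lowest ratios of each chromatin comparison with at least 20 reads in either condition, the 10 member genes highest in RNA at 22h, the 5 highest and lowest of those called in mESC, and members of the lists. Pitx, Neurog, Ndrg4, Col4a1, 1700025G04Rik, Hox, Wnt and other family examples were named after their values were seen. Start sites are those of the RNA tables, and 249 coding genes had more than 1 start. Whether peak positions count from 0 or 1 is not stated. The series' design text names H3K27ac, whereas the labels and tables hold H3K27me3 and H3K4me3. Some results are not reported here.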

Additional observations from a re-analysis of the deposited data

Results flagged for a closer look

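For 3 of the member genes named in the text, every LoNA KO library lay on one side of control at one time and on the other side at another time. Over all member genes tested at 2 or more times, 46 of 1273 (3.61%) had such opposite sides at some pair of times, beside 481 of 15012 genes tested (3.20%). These differences between times were not tested, and none of the single changes passed the adjusted threshold of edgeR. Pcgf5, a PRC1 subunit, had 11.5, 10.1 and 9.39 CPM in LoNA KO against 7.42, 6.71 and 7.19 CPM in control at 18h (log2 change of 0.54). At 20h it had 1.90, 0.661 and 0.282 CPM in LoNA KO against 8.43, 7.67 and 2.88 CPM in control (-2.73). Clvs1 had 10.5, 12.7 and 9.48 CPM in LoNA KO against 28.4, 19.7 and 14.5 CPM in control at 18h (-0.94), and 25.6, 24.6 and 22.3 CPM in LoNA KO against 10.7, 10.9 and 21.8 CPM in control at 20h (0.74).

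Eomes, a T-box factor of trophectoderm and mesoderm, had 0.728, 1.20 and 0.712 CPM in LoNA KO against 0, 0.416 and 0 CPM in control at 22h (2.60). At 24h it had no count in LoNA KO against 0.805 and 3.86 CPM in control. Its fitted change of -8.16 there depends on the prior count and is no bound, and at a floor of 3 counts over the LoNA KO group it was at least 22.8-fold lower.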

How the results depend on the processing

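No paired analysis was possible because the table columns carry no labelled replicate numbers. Centred on the median of all peaks, the members' median log2 ratio was 0.056 for H3K27me3, 0.014 for H3K4me3, 0.084 for AcNPM1 and -0.029 for inhibitor over LoNA KO. With only members whose peak covers a start, an alternative chosen after seeing the data, it was 0.13 for H3K27me3 and -0.12 for H3K4me3, and mESC calls were 379 higher and 470 lower. DESeq2 called 4 member genes higher and 9 lower at 18h, 2 and 2 at 20h, 2 higher at 22h, 46 and 80 at 24h, and 660 higher and 529 lower in mESC. Without a filter edgeR called 3 higher and 6 lower at 18h, 2 higher at 20h and 4 higher at 22h. With the 24h columns kept apart it called 28 higher and 44 lower. That setting counts near-identical columns as separate libraries, so its p-values are too small to rely on. Leaving out each library gave 0 to 1 call in each direction at 24h, the 1 without the second control library. In mESC it gave 679 to 708 higher and 651 to 734 lower. Apart from DESeq2, the shares of all genes called under these alternatives are not given here. Those counts are therefore not read as a result about member genes. 1700025G04Rik passed the threshold at 18h and 20h with DESeq2 or without the filter, and Rgs2 at 18h with DESeq2. Gata3 passed it at 24h with DESeq2, and with columns kept apart, where near-identical columns are counted separately. Of the 128 values of main comparisons under alternatives, 104 stayed within the limits set, and the H3K4me3 median changed sign when centred, against -0.11 as reported. The cause of the others was not tested. Chromatin values have no replicate, and counting error at members is about 0.23 on the log2 scale for H3K27me3 and AcNPM1.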
